A study of Mus musculus with 10 samples.

Results

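Toll-like receptors are the sensors with which macrophages and other innate immune cells detect microbial molecules and nucleic acids released from dying cells. The report covers 10 genes, chosen by symbol from the 55401 gene rows of the count tables. They are the endosomal receptors *Tlr3*, *Tlr7*, *Tlr8*, *Tlr9* and *Tlr13*, the chaperone *Unc93b1*, the surface receptors *Tlr2* and *Tlr4*, and the co-receptors *Cd14* and *Ly96*. All 10 symbols were present once and all 10 had enough counts to be tested. The question put to them was whether endosomal and surface receptors differed between *Mir25* KO and NTC tumors, and how their levels were spread over single tumors.

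The tumors were grown from B16F10, a mouse melanoma line, injected under the skin of C57BL/6J mice of 9 to 12 weeks. There were 5 tumors of *Mir25* KO cells and 5 of non-targeted control (NTC) cells. Both groups received the same combination treatment (Comb), which was GVAX, a vaccine of irradiated B16 cells that secrete GM-CSF, on days 1 and 4, and αPD-1 antibody at 10 mg/kg on days 6, 9 and 12. All tumors were taken on day 15, so no untreated tumor was compared. *Mir25* was edited with CRISPR-Cas9 in the injected tumor cells, and the host cells of the tumor, macrophages included, carried an intact gene. The study's methods describe a single injection site of tumor cells per mouse and independent samples for RNA. Which guide or clone gave these tumors is not given in the sources used here.

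NTC replicate 1 stood apart from the other 9 libraries. It held 11896643 reads on genes against 23243707 to 28682130 in the others, 42.9% of its reads lay outside genes against 17.5% to 28.2%, and a count was present for 33193 genes where the others had 22192 to 25435. Its TMM factor, which multiplies the library size before counts are scaled, was 0.628 against 0.968 to 1.11 in the others. A factor that low raises every scaled level of this library. Comparisons of KO with NTC are therefore given over all 10 tumors and again over the 9 without it. The deleted gene gave no check of the labels, because the *Mir25* row was 0 in every library. The 10 genes were well covered: the lowest single count was 24, and their summed count per tumor ran from 4552 to 24388.

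The receptors fall into roles. *Tlr2* and *Tlr4* sit on the cell surface and recognize bacterial lipoproteins and lipopolysaccharide, for which *Tlr4* needs *Ly96* and is helped by *Cd14*. *Tlr3*, *Tlr7*, *Tlr8*, *Tlr9* and *Tlr13* act in endosomes, where they bind nucleic acids, and *Unc93b1* carries these receptors there from the endoplasmic reticulum. In mouse tissue most of these genes are known from macrophages and dendritic cells, while *Tlr3* is also used by epithelial and stromal cells and by some tumor cells.

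Mature miR-25-3p, the RNA that the edited locus makes, is shown with its seed (bases 2 to 8) in capitals, since the seed is what pairs with a target. It lies at chr5:138165332-138165353 on the minus strand of GRCm38, and its sequence was taken from RefSeq.
mmu-miR-25-3p: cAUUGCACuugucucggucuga
The matching site, GTGCAAT, was found in the longest annotated 3′ UTR of 0 of the 10 genes and in 6.56% of the 21007 genes with a 3′ UTR in GENCODE M21. These UTRs ran from 58 bases (*Tlr8*) to 1496 bases (*Tlr3*), where the median over all genes was 961. Only those of *Tlr3* and *Tlr4* were longer than that median, and short UTRs hold fewer sites.

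RefSeq start sites with upstream sequence were at hand for 5 of the genes, and their 250 bases upstream were searched on both strands for GAGGAA, a core bound by ETS factors such as PU.1, GAAANNGAA, bound by IRF factors, and GGANTTTCC, bound by NF-kB. GAGGAA was found in *Tlr8*, *Tlr9* and *Tlr13* and in 23.3% of all 32851 such windows. GAAANNGAA was found in *Tlr8* and in 7.13% of windows. GGANTTTCC was found in *Tlr3*, at position -210 from the start in a stretch that GENCODE annotates as exon, and in 1.07% of windows. *Tlr2* held none of the 3 motifs. Of the 250 bases searched, 159 in *Tlr2*, 178 in *Tlr3* and 71 in *Tlr13* lie in GENCODE exons. A link between the motifs and the levels was not tested. The stretches of 30 bases around the matches of *Tlr8*, *Tlr9* and *Tlr13*, the 3 genes with a match outside annotated exons, are printed from GRCm38.p6 in the direction of the gene, with the matched letters in capitals. In *Tlr8* both matches lie on the strand opposite to the gene, and they do not overlap.
Tlr8, chrX:167264383-167264412, minus strand: tgacttTTCCTCtgaaTTCAGTTTCgaaat
Tlr9, chr9:106222474-106222503, plus strand: ggagagtggaaaGAGGAAggggttgagggg
Tlr13, chrX:106143174-106143203, plus strand: cctaaaaaaaaaagagaaGAGGAAggaaat

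Levels are given in CPM, counts scaled by TMM library sizes to a common total of reads on genes, and positions are those of GENCODE M21 on GRCm38. Among the endosomal receptors, *Tlr7*, *Tlr8*, *Tlr9* and *Tlr13* differed far more between tumors of one group than between the groups, whereas *Tlr3* was nearly level. *Tlr7*, a sensor of single-stranded RNA on chromosome X (167304929 to 167330558), stood at 29.2, 57.2, 12.2, 6.80 and 63.9 CPM in KO tumors 1 to 5. In NTC tumors 1 to 5 it stood at 50.7, 3.41, 8.54, 2.56 and 10.8 CPM. KO tumors 2 and 5 and NTC tumor 1 were high, NTC tumors 2 and 4 were low, and the groups overlapped. *Tlr8*, its neighbour on chromosome X (167242696 to 167264329) and also a sensor of RNA, stood at 59.1, 125, 20.96, 21.09 and 134 CPM in KO tumors. NTC tumors held 119, 7.25, 20.2, 6.01 and 26.3 CPM of *Tlr8*. The same tumors were high and the same were low as for *Tlr7*.

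*Tlr9* (chromosome 9, 106222598 to 106226883), which binds unmethylated CpG DNA, stood at 8.76, 21.5, 5.75, 5.33 and 19.2 CPM in KO tumors and 11.2, 2.36, 5.17, 0.975 and 10.2 CPM in NTC tumors. *Tlr13* (chromosome X, 106143204 to 106160493), a receptor for bacterial ribosomal RNA that humans lack, stood at 78.0, 140, 30.3, 26.1 and 208 CPM in KO tumors. Its NTC values were 165, 13.3, 26.9, 9.43 and 37.8 CPM. For both genes NTC tumor 4 was the lowest of all 10 and the groups overlapped. *Unc93b1* (chromosome 19, 3935186 to 3949340), on which the endosomal receptors depend for their transport, followed them at 147, 342, 101, 75.8 and 337 CPM in KO tumors. In NTC tumors it stood at 236, 51.5, 105, 33.7 and 121 CPM, again lowest in tumors 2 and 4.

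*Tlr3*, the receptor for double-stranded RNA on chromosome 8 (45395665 to 45411080), had another pattern. It stood at 44.2, 33.5, 30.9, 41.3 and 37.1 CPM in KO tumors and at 50.6, 47.8, 46.7, 49.2 and 43.3 CPM in NTC tumors. Only KO tumor 1 reached into the NTC range, and the tumors with the highest *Tlr7* and *Tlr8* in the KO group, 2 and 5, were among the lower ones for *Tlr3*. *Tlr3* shares 381 exonic bases with the antisense gene *Gm45542*, whose own count was 0 to 9 per tumor. The strand setting of the counting is not given in the sources used here, so reads on the shared bases cannot be assigned with certainty.

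The surface arm split in the same way. *Tlr2* (chromosome 3, 83836272 to 83841767), which recognizes lipoproteins together with *Tlr1* or *Tlr6*, stood at 18.4, 30.9, 12.6, 12.1 and 37.1 CPM in KO tumors and at 34.5, 5.31, 16.6, 3.29 and 14.2 CPM in NTC tumors. *Tlr4* (chromosome 4, 66827584 to 66930284) varied less, at 95.2, 157, 74.1, 86.9 and 164 CPM in KO tumors. In NTC tumors *Tlr4* stood at 155, 77.3, 86.2, 71.9 and 82.1 CPM. For *Tlr2* the NTC tumors 2 and 4 lay well below all others, but for *Tlr4* they were close to NTC tumors 3 and 5 and to KO tumor 3. *Ly96* (chromosome 1, 16688051 to 16709611), the subunit that holds lipopolysaccharide for *Tlr4*, resembled it, at 10.4, 11.6, 8.51, 7.38 and 12.3 CPM in KO tumors and 13.0, 7.25, 7.75, 6.38 and 7.35 CPM in NTC tumors. *Cd14*, which hands lipopolysaccharide to that complex, stood at 8.80, 5.77, 3.16, 5.58 and 18.1 CPM in KO tumors. The NTC tumors held 35.1, 1.90, 4.82, 1.54 and 4.02 CPM of *Cd14*, so that NTC tumor 1 was the highest of all 10 and the other 4 lay between 1.54 and 4.82.

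**Figure D1:**
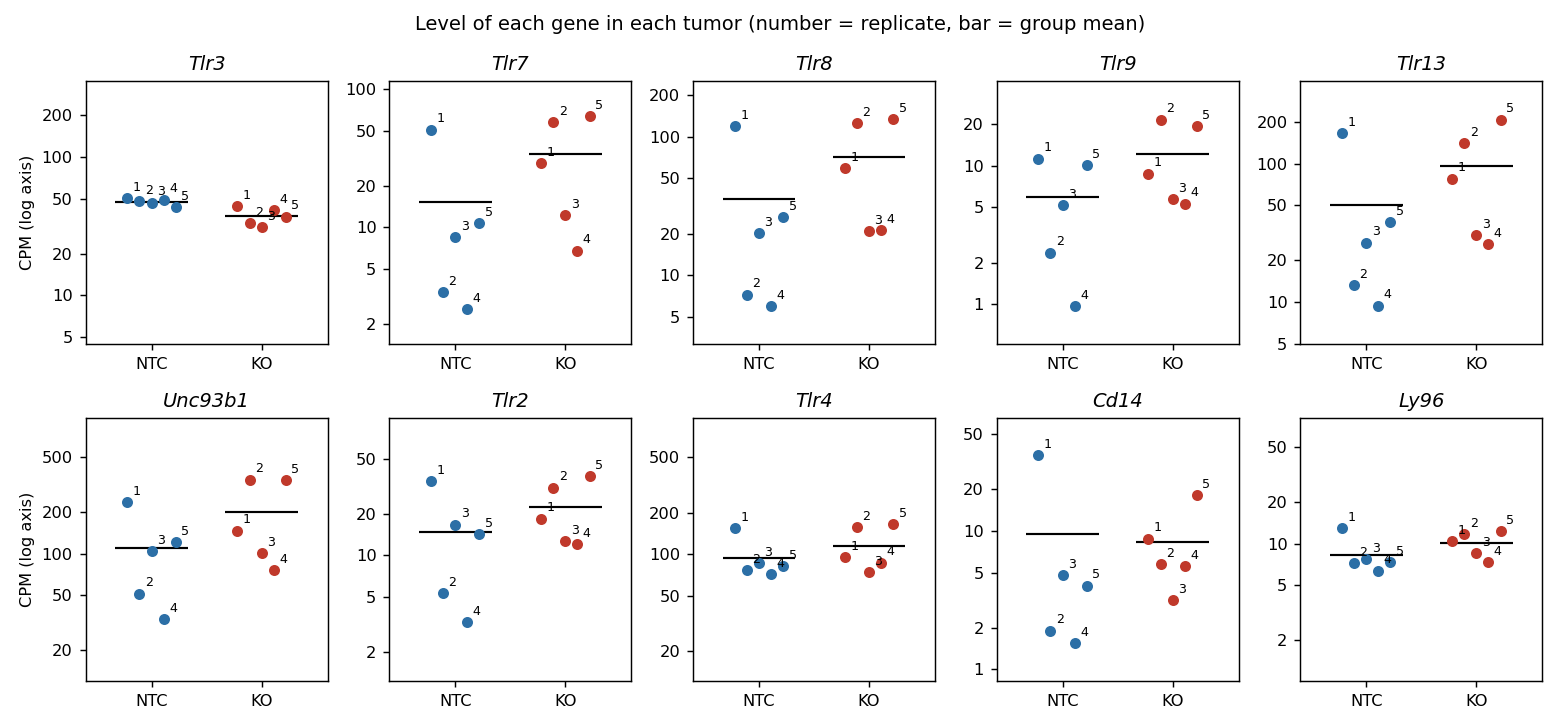
Level of each of the 10 genes in CPM (log axis, the same span of decades in every panel) in NTC tumors (blue) and KO tumors (red), with the replicate number beside each point and a bar at the group mean. *Tlr3*, *Tlr4* and *Ly96* spread little, while *Tlr7*, *Tlr8*, *Tlr9* and *Tlr13* spread widely, with NTC tumor 4 lowest in each and KO tumor 5 highest in all but *Tlr9*, where KO tumor 2 is.

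Against this spread, edgeR called 0 of the 10 genes between KO and NTC over 10 tumors, at an adjusted p under 0.05 and an absolute log2 fold change over 1, where 0.0190% of the 15821 genes tested were called. DESeq2 over the same tumors called 0 of the 10 as well, where it called 0.607% of all genes. Of the 10 genes, 8 had a positive log2 fold change (51.3% of all genes), 0 were at an unadjusted p under 0.05 with a higher level (3.99% of all genes) and 1, *Tlr3*, with a lower level (4.85% of all genes). In 0 of them did every KO tumor lie above every NTC tumor, which held for 0.872% of all genes.

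*Tlr3* averaged 37.4 ± 5.44 CPM in KO tumors (SD, n = 5) and 47.5 ± 2.78 CPM in NTC tumors (SD, n = 5). Its log2 fold change was -0.35 (SE 0.11), with an edgeR p of 0.00847 that adjusted over all genes came to 0.334. Its difference and its error were both smaller than those of the other endosomal receptors. *Tlr7* averaged 33.9 ± 25.8 CPM in KO tumors and 15.2 ± 20.2 CPM in NTC tumors, a log2 fold change of 1.19 (SE 0.87) with an edgeR adjusted p of 0.724. *Tlr8*, *Tlr9* and *Tlr13* gave log2 fold changes of 1.03 (SE 0.86), 1.04 (SE 0.65) and 0.95 (SE 0.83), and *Unc93b1* gave 0.88 (SE 0.57). The surface genes gave smaller values, 0.61 (SE 0.59) for *Tlr2*, 0.29 (SE 0.28) for *Tlr4* and 0.28 (SE 0.23) for *Ly96*, and *Cd14* gave -0.16 (SE 0.85). For each of these genes but *Tlr3* the edgeR adjusted p was 0.675 or higher.

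Without NTC replicate 1 every log2 fold change but that of *Tlr3* was higher than over 10 tumors. edgeR again called 0 of the 10 genes, where 0.106% of 16078 genes were called. At an unadjusted p under 0.05, 6 of the 10 were higher in KO tumors (12.0% of all genes) and 1, *Tlr3*, was lower (8.10% of all genes). *Tlr7* then differed by a log2 fold change of 2.37 (SE 0.70, edgeR adjusted p 0.161), *Tlr8* by 2.22 (SE 0.69, edgeR adjusted p 0.172) and *Tlr13* by 2.10 (SE 0.66, edgeR adjusted p 0.177). *Unc93b1* differed by 1.33 (SE 0.53), *Tlr9* by 1.33 (SE 0.66), *Tlr2* by 1.13 (SE 0.51), *Tlr4* by 0.50 (SE 0.23) and *Ly96* by 0.45 (SE 0.17). *Cd14* turned from -0.16 to 1.39 (SE 0.52, edgeR adjusted p 0.205), and *Tlr3* remained at -0.36 (SE 0.12, edgeR adjusted p 0.180). In 0 of the genes did all 5 KO tumors lie above the 4 NTC tumors, which held for 2.71% of all genes. DESeq2 on the same 9 tumors called 3 of the 10 higher, *Tlr7* (2.42, DESeq2 adjusted p 0.0263), *Tlr8* (2.27, DESeq2 adjusted p 0.0355) and *Tlr13* (2.15, DESeq2 adjusted p 0.0379), where it called 3.27% of all genes higher. These 3 calls rest on both the tool and the absence of 1 library, a combination chosen after seeing the data.

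Leaving out some of the other tumors gave smaller differences. When each of the 10 tumors was left out in turn, the log2 fold change ran from 0.84 to 2.37 for *Tlr7*, from 0.69 to 2.22 for *Tlr8*, from 0.72 to 1.34 for *Tlr9* and from 0.47 to 2.10 for *Tlr13*. It ran from 0.60 to 1.33 for *Unc93b1*, from 0.34 to 1.13 for *Tlr2*, from 0.13 to 0.50 for *Tlr4*, from 0.19 to 0.45 for *Ly96*, from -0.41 to -0.29 for *Tlr3* and from -0.65 to 1.39 for *Cd14*. Without KO replicate 5, the values were 0.47 for *Tlr13*, 0.34 for *Tlr2*, 0.13 for *Tlr4* and -0.65 for *Cd14*. *Tlr4* was at 0.16 without KO replicate 2, and *Tlr2* was at 0.39 without NTC replicate 2 and 0.35 without NTC replicate 4. Of the 10 genes, *Cd14* alone changed its direction when 1 tumor was left out, and edgeR called 0 of them each time.

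**Figure D2:**
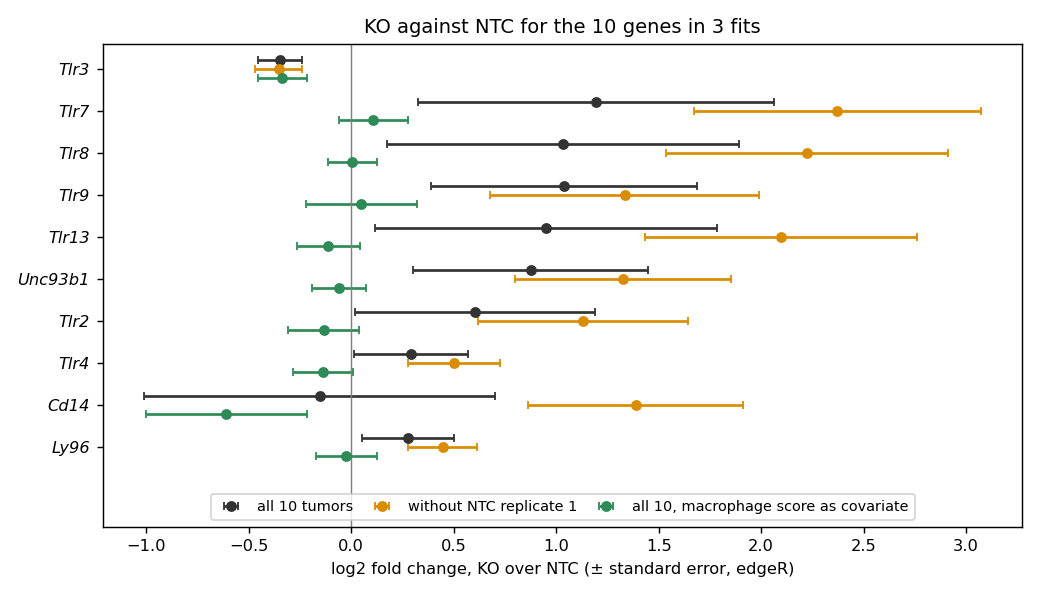
Log2 fold change of KO over NTC (horizontal axis, points with standard errors from edgeR) for each gene over all 10 tumors (black), without NTC replicate 1 (orange) and over all 10 with the macrophage score as a covariate (green). With the covariate *Tlr7*, *Tlr8*, *Tlr9*, *Tlr13* and *Unc93b1* sit near 0 and *Tlr3* stays at -0.34, while *Cd14* lies on opposite sides of 0 with and without NTC replicate 1.

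The tumors differed in how much macrophage RNA they held. The summed level of 9 macrophage markers (*Adgre1*, *Csf1r*, *Cd68*, *Mrc1*, *C1qa*, *C1qb*, *C1qc*, *Fcgr1* and *Mertk*) ran from 949 to 4245 CPM in KO tumors and from 311 to 3515 CPM in NTC tumors, a 13.6-fold span with NTC tumor 4 lowest and KO tumor 5 highest. None of the 9 markers was at 0 in any tumor. Over the 10 tumors 0 of the 9 were at an unadjusted p under 0.05 in edgeR and their median log2 fold change was 0.97, and without NTC replicate 1 all 9 were higher at that threshold with a median of 1.65. For comparison, the median over the 10 genes was 0.74 over 10 tumors and 1.33 over 9, and the median over all genes was 0.01 and -0.02. In bulk RNA, fewer macrophages and less receptor RNA per macrophage cannot be told apart.

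Set against these markers, 6 of the 10 genes kept a narrow range. *Tlr8* spanned 22.2-fold in CPM over the 10 tumors but 1.80-fold when its reads were divided by the macrophage marker reads of the same tumor. The span fell in the same way for *Tlr13*, from 22.03-fold to 1.91-fold, for *Tlr7*, from 25.0-fold to 2.15-fold, and for *Tlr9*, from 22.1-fold to 2.38-fold. *Unc93b1* went from 10.1-fold to 2.01-fold and *Tlr2* from 11.3-fold to 2.04-fold. In the plot of each gene against the markers, KO and NTC tumors lie along a common line for these 6 genes.

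For *Tlr4*, *Ly96* and *Tlr3* the same division widened the range. *Tlr4* spanned 2.28-fold in CPM and 5.98-fold per macrophage marker read, *Ly96* 2.04-fold and 7.07-fold, and *Tlr3* 1.64-fold and 18.7-fold. Per 1000 macrophage marker reads, NTC tumors 2 and 4 held 203 and 231 reads of *Tlr4* and the other 8 tumors held 38.6 to 91.6. The same 2 tumors, which had the least macrophage RNA, held 19.0 and 20.5 reads of *Ly96* where the others held 2.90 to 7.77, and 125 and 158 reads of *Tlr3* where the others held 8.44 to 44.5. *Tlr3* therefore did not fall in tumors with few macrophage markers, and *Tlr4* and *Ly96* fell less steeply than the markers. Both were lowest in NTC tumor 4. Their log2 CPM followed the mean log2 CPM of the 9 markers with r of 0.89 and 0.93, against -0.39 for *Tlr3*. Division by the reads of 7 melanoma markers, whose summed level spanned 1.90-fold, gave 2.82-fold for *Tlr3*, 3.85-fold for *Tlr4* and 3.52-fold for *Ly96*.

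A straight line of CPM on the summed macrophage marker CPM, drawn after the values were seen, was extended to no macrophage marker. Its value there, the intercept, lies outside the data, whose lowest tumor held 311 CPM of the markers. The straight form was not tested, and the intercept is not a measured level. For *Tlr3* it was 45.4 CPM, 107% of the gene's mean, and it stayed between 103% and 111% when each tumor was left out in turn. For *Ly96* it was 6.30 CPM, or 68.5% of the mean (65.8% to 72.9%), and for *Tlr4* 58.2 CPM, or 55.5% (51.2% to 59.3%). For *Tlr2* it was 20.9% (15.6% to 24.5%), for *Tlr9* 10.5% (4.39% to 19.1%) and for *Unc93b1* 9.50% of the mean (7.31% to 14.4%) when each tumor was left out in turn. For *Cd14* it was -0.21%, and its range of -20.6% to 22.3% leaves its sign unsettled. For *Tlr7*, *Tlr8* and *Tlr13* it was below 0, at -22.9% (-27.4% to -18.0%), -21.4% (-26.8% to -17.4%) and -20.7% (-30.0% to -17.2%). No level can be below 0, so the line does not hold down to that point for these 3 genes. Per read of the markers the 3 genes differed in detail. *Tlr8* held 31.2 to 33.8 reads per 1000 macrophage marker reads in KO tumors 1, 2 and 5 and NTC tumor 1, the 4 tumors with the most macrophage RNA, and 18.7 to 22.2 in the other 6. *Tlr7* likewise held 14.4 to 15.4 reads in those 4 tumors and 7.17 to 10.9 in the other 6. *Tlr13* did not split as cleanly, with 35.4 to 48.9 reads in the 4 tumors, 34.8 and 30.3 in NTC tumors 2 and 4 and 25.6 to 27.8 in the remaining 4. *Tlr9* showed no such step, with 3.13 to 7.46 reads.

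**Figure D3:**
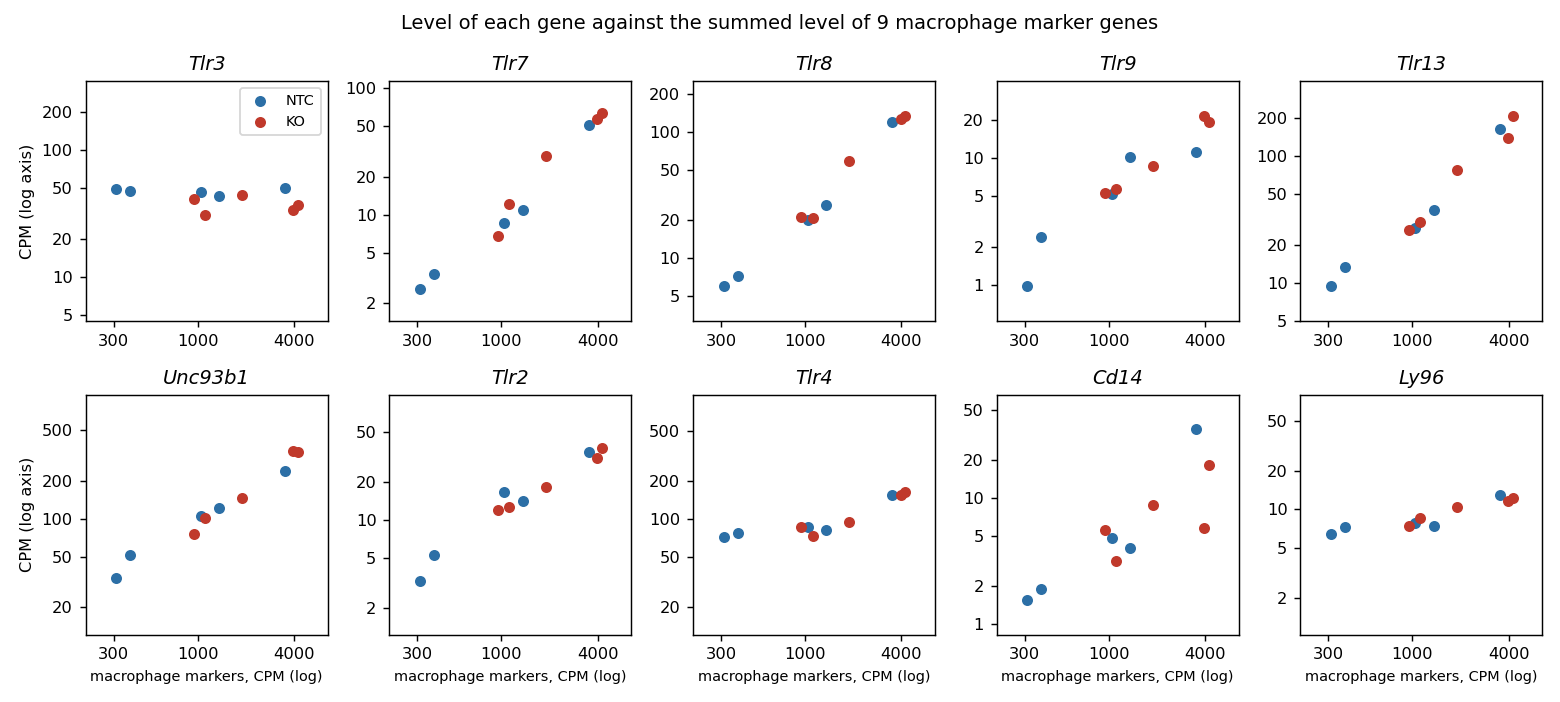
CPM of each gene (vertical, log axis) against the summed CPM of 9 macrophage markers (horizontal, log axis), 1 point per tumor, NTC in blue and KO in red. *Tlr7*, *Tlr8*, *Tlr9*, *Tlr13*, *Unc93b1* and *Tlr2* climb along 1 line that KO and NTC tumors share, *Tlr4* and *Ly96* are flat up to about the middle of the range and *Tlr3* is flat throughout.

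**Figure D4:**
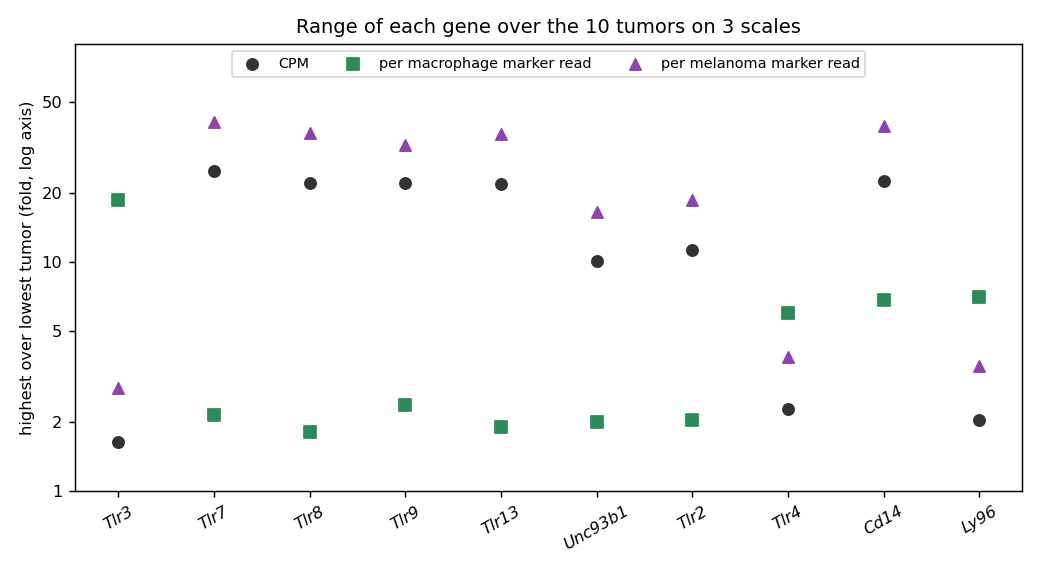
Highest over lowest tumor (fold, log axis) for each gene in CPM (circles), per macrophage marker read (squares) and per melanoma marker read (triangles), over all 10 tumors. Squares fall below circles for *Tlr7*, *Tlr8*, *Tlr9*, *Tlr13*, *Unc93b1*, *Tlr2* and *Cd14* and lie above them for *Tlr3*, *Tlr4* and *Ly96*.

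*Cd14* belonged to neither pattern. It spanned 22.7-fold in CPM and 6.86-fold per macrophage marker read, and 11.7-fold and 4.04-fold without NTC replicate 1. NTC tumor 1 held 9.98 reads of *Cd14* per 1000 macrophage marker reads, against 1.45 to 5.88 in the other tumors, and KO tumor 2 held the least. The summed level of 5 neutrophil markers was also highest in NTC tumor 1, at 101 CPM against 3.12 to 57.9 CPM elsewhere, 1 of the 5 being at 0 in at least 1 tumor. So were the sums of endothelial (188 CPM), B cell (8.70 CPM) and plasmacytoid dendritic cell markers (11.8 CPM). *Il1b*, a cytokine that Toll-like receptors induce, stood at 66.0 CPM in NTC tumor 1 and at 1.11 CPM in the lowest NTC tumor. The part of neutrophils or of these other cell types in the level of *Cd14* was not tested.

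With the macrophage score (mean log2 CPM of the 9 markers) as a covariate in edgeR over the 10 tumors, 1 of the 10 genes, *Tlr3*, was at an unadjusted p under 0.05, where 13.5% of all genes were, and 0 were called. *Tlr3* was lower by a log2 fold change of -0.34 (SE 0.12, edgeR adjusted p 0.245), close to its value without the covariate. *Tlr7* came to 0.11 (SE 0.17), *Tlr8* to 0.01 (SE 0.12), *Tlr9* to 0.05 (SE 0.27), *Tlr13* to -0.11 (SE 0.15) and *Unc93b1* to -0.06 (SE 0.13). *Tlr2* and *Tlr4* both came to -0.14 (SE 0.17 and SE 0.15), *Ly96* to -0.02 (SE 0.15) and *Cd14* to -0.61 (SE 0.39). For these 9 genes no difference between KO and NTC was detectable at an equal macrophage score, and the standard errors were between 0.12 for *Tlr8* and 0.39 for *Cd14*. The same covariate without NTC replicate 1, a fit added after seeing the data, again called 0 of the 10, and 0 were higher and 0 lower at an unadjusted p under 0.05, where 4.48% of all genes were higher and 4.34% lower. *Tlr3* came to -0.24 (SE 0.15, edgeR adjusted p 0.685) in that fit, so its place under the unadjusted threshold depended on NTC replicate 1 once the macrophage score was in the model. The other 9 genes lay between -0.26 (*Tlr9*, SE 0.28) and 0.25 (*Tlr7*, SE 0.22).

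Markers of other cell types were summed in the same way. The 4 monocyte markers summed to 76.2 to 380.1 CPM in KO tumors (median 184) and 41.4 to 287 CPM in NTC tumors (median 107). The 5 conventional dendritic cell markers summed to 15.9 to 42.0 CPM (median 24.4) and 9.43 to 25.4 CPM (median 18.3). The 5 T cell markers summed to 16.2 to 100.4 CPM (median 49.8) and 8.82 to 46.2 CPM (median 17.5). These 3 sums were higher in KO than in NTC tumors by their medians. The receptors other than *Tlr3* and *Cd14* were likewise higher by their fold changes. For these 3 sums the groups overlapped, and none of their markers was at 0 in any tumor. Higher KO medians were not limited to these 3 sums. Fibroblast markers had medians of 1251 CPM in KO and 436 CPM in NTC tumors. The macrophage, neutrophil, natural killer cell, endothelial, B cell, muscle and keratinocyte sums also had higher KO medians. The KO medians were lower for melanoma markers (14955 against 19199 CPM) and plasmacytoid dendritic cell markers (8.64 against 9.22 CPM). KO replicate 5 was highest for the monocyte and T cell markers, and KO replicate 2 for the conventional dendritic cell markers. The 4 natural killer cell markers summed to 2.27 to 10.1 CPM and 0.569 to 9.77 CPM, with 1 of the 4 at 0 in at least 1 tumor, and the 5 endothelial markers to 69.0 to 145 CPM and 39.8 to 188 CPM. The 5 plasmacytoid dendritic cell markers, cells known for *Tlr7* and *Tlr9*, summed to 5.61 to 11.0 CPM in KO tumors and 5.44 to 11.8 CPM in NTC tumors, and 2 of the 5 were at 0 in at least 1 tumor. The 5 B cell markers summed to 1.01 to 7.13 CPM and 0.528 to 8.70 CPM, with 2 of the 5 at 0 in at least 1 tumor. The 5 fibroblast markers summed to 413 to 2381 CPM in KO tumors and 28.2 to 2179 CPM in NTC tumors. The 7 melanoma markers summed to 11759 to 19313 CPM and 11213 to 21312 CPM, so the melanoma markers were high in every library. The 5 skeletal muscle markers summed to 172 CPM in KO tumor 4, 32.1 CPM in KO tumor 3 and at most 5.35 CPM elsewhere. The 5 keratinocyte markers summed to 18.5 CPM in KO tumor 3, 5.15 CPM in KO tumor 4 and at most 2.54 CPM elsewhere. Of these markers, 3 for muscle and 5 for keratinocytes were at 0 in at least 1 tumor. The part of these cells in the receptor levels was not tested.

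Levels of different genes can be compared only per length, here as CPM per kb of annotated exon. Over the 10 tumors *Unc93b1* averaged 51.2 ± 37.0 CPM per kb (SD, n = 10), *Tlr4* 18.9 ± 6.78, *Tlr13* 17.1 ± 16.6 and *Tlr8* 15.02 ± 14.5 CPM per kb. *Ly96* followed at 9.01 ± 2.37, *Tlr3* at 8.15 ± 1.29, *Tlr2* at 6.15 ± 3.93 and *Tlr7* at 6.01 ± 5.87 CPM per kb, with *Cd14* at 5.12 ± 5.98 and *Tlr9* at 2.60 ± 1.95 CPM per kb at the end. *Unc93b1* exceeded *Tlr4* in 9 of the 10 tumors, and *Tlr13* exceeded *Tlr8* in 9. Other neighbours did not keep their order: *Tlr4* exceeded *Tlr13* in 6 tumors, *Tlr8* exceeded *Ly96* in 5, *Ly96* exceeded *Tlr3* in 5, *Tlr3* exceeded *Tlr2* in 7, *Tlr2* exceeded *Tlr7* in 6, *Tlr7* exceeded *Cd14* in 5 and *Cd14* exceeded *Tlr9* in 8.

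The leading receptor changed from tumor to tumor. Of the 7 receptors, *Tlr4* had the highest CPM per kb in 6 tumors, *Tlr13* in 3 (KO tumors 1 and 5 and NTC tumor 1) and *Tlr8* in 1 (KO tumor 2). The 5 endosomal receptors made up 69.4%, 71.0%, 57.3%, 54.0% and 73.1% of the 7 receptors' CPM per kb in KO tumors 1 to 5. In NTC tumors 1 to 5 they made up 71.1%, 50.2%, 53.7%, 50.3% and 60.6%. The group means were 65.0% ± 8.70 (SD, n = 5) and 57.2% ± 8.86 (SD, n = 5), and 53.7% ± 4.87 (SD, n = 4) in NTC tumors without replicate 1, and the groups overlapped. Without *Tlr3* the endosomal part ran from 16.9% in NTC tumor 4 to 68.5% in KO tumor 5, with 58.2% or more in the 4 tumors with the most macrophage RNA and 43.8% or less in the other 6.

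**Figure D5:**
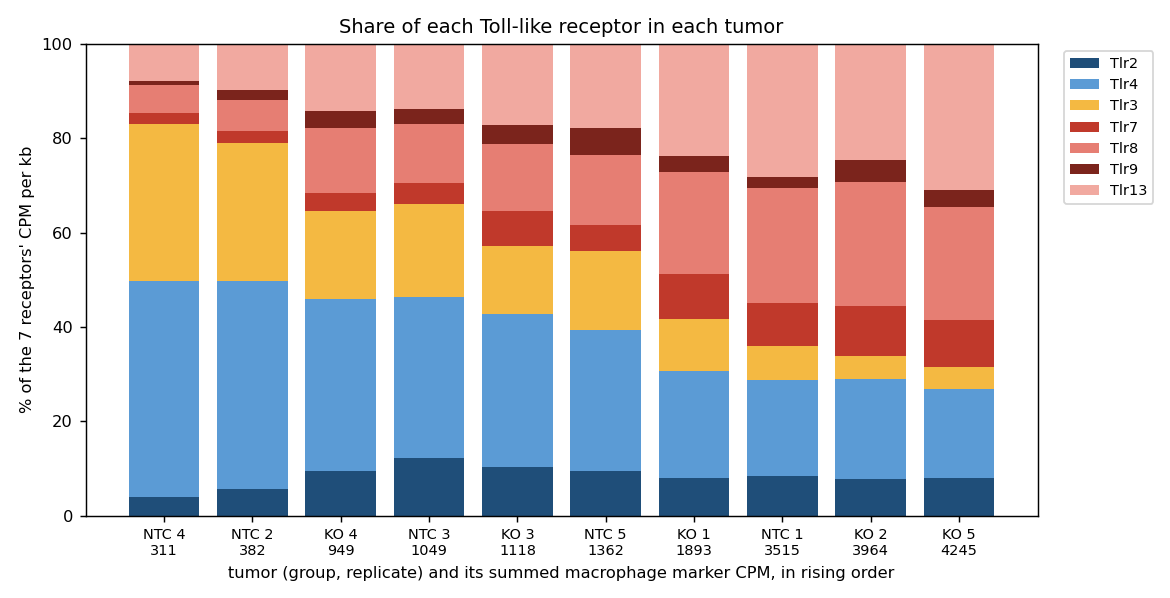
Share of each of the 7 receptors in their summed CPM per kb (vertical axis, percent), 1 bar per tumor, ordered by the summed macrophage marker CPM printed under each bar. From left to right *Tlr3* (yellow) and *Tlr4* (light blue) shrink and *Tlr7*, *Tlr8* and *Tlr13* (reds) grow, with KO and NTC tumors interleaved.

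On a log scale, the mean log2 CPM of the 5 endosomal receptors minus that of *Tlr2* and *Tlr4* was -0.53 ± 0.41 in KO tumors (SD, n = 5, -1.09 to -0.23) and -0.98 ± 0.44 in NTC tumors (SD, n = 5, -1.37 to -0.37). The difference between the groups was 0.45, and 0.60 without NTC replicate 1. Without *Tlr3*, whose log2 fold change was negative, the score was -0.58 ± 0.64 in KO tumors (SD, n = 5) and -1.38 ± 0.74 in NTC tumors (SD, n = 5), a difference of 0.80. The groups overlapped, and the score was given no test because it runs over genes that were chosen with results known. The endosomal receptors had a median log2 fold change of 1.03 over 10 tumors and 2.10 over 9. The 4 surface receptors and co-receptors had medians of 0.28 and 0.82. With the macrophage score as a covariate the medians were 0.01 and -0.14.

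Among all genes tested, those closest to each receptor by Pearson's r of log2 CPM over the 10 tumors were, for *Tlr8*, *Lyz2*, *Fcgr3* and *Syk* and, for *Tlr13*, *Igsf6*, *Dhrs3* and *Lat2*, each with r of 0.996 or more. *Unc93b1* lay closest to *Gngt2*, *Slc11a1* and *Vav1*, *Tlr7* to *Dgka*, *Shtn1* and *Dram1*, *Tlr9* to *H4c12*, *Pld4* and *H2bc15*, and *Tlr2* to *H2bc7*, *Slc28a2* and *Hist1h2an*. *Tlr4* lay closest to *Ctps2*, *Ptp4a2* and *Fam49b*, *Ly96* to *Dleu2*, *Serpinb6a* and *Zrsr1* and *Cd14* to *Tbx18*, *8030453O22Rik* and *Kctd11*. *Tlr3* lay closest to *Akap6*, *Pih1d2* and *Edil3*, with r of 0.93, 0.93 and 0.92. These are the nearest of 15821 genes, all measured in the same 10 libraries, and they are a description.

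The other 5 Toll-like receptors of the mouse tables were tested as well, and 4 of them had a positive log2 fold change. *Tlr1*, the partner of *Tlr2*, averaged 19.7 ± 11.9 CPM in KO tumors and 11.1 ± 11.7 CPM in NTC tumors (log2 fold change 0.86, SE 0.76), and *Tlr6*, its other partner, 6.84 ± 4.84 and 4.58 ± 5.30 CPM (0.63, SE 0.76). *Tlr11* and *Tlr12*, the mouse receptors for profilin, averaged 3.25 ± 2.52 and 7.69 ± 5.17 CPM in KO tumors and 1.64 ± 1.58 and 2.64 ± 1.99 CPM in NTC tumors. *Tlr12* was the 1 of these 5 at an unadjusted p under 0.05 (log2 fold change 1.51, SE 0.64, edgeR adjusted p 0.516), and it was at 0.803 CPM in NTC tumor 1, where *Tlr7*, *Tlr8* and *Tlr13* were high. Without NTC replicate 1 *Tlr12* gave 1.27 (SE 0.62) and was no longer under that threshold, while *Tlr1* (1.61, SE 0.67, edgeR adjusted p 0.226) and *Tlr6* (1.54, SE 0.62, edgeR adjusted p 0.220) were. *Tlr11* gave 1.06 (SE 0.78) over 10 tumors and 1.59 (SE 0.74) over 9. *Tlr5*, the flagellin receptor, stayed below 1 CPM in 9 tumors and reached 3.75 CPM in NTC tumor 1, so that its log2 fold change turned from -0.83 (SE 0.89) to 0.72 (SE 0.49) without that tumor.

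Of the rest of the pathway, edgeR called 0 genes in each list, over 10 tumors and over 9. The counts that follow are at an unadjusted p under 0.05, which 3.99% of all genes passed as higher and 4.85% as lower over 10 tumors, and 12.0% and 8.10% over 9. Among 11 tested accessory and trafficking genes, 0 were higher and 1 lower over 10 tumors, and 4 higher and 1 lower over 9. The lower one over 10 tumors was *Hsp90b1*, the chaperone that folds Toll-like receptors, at 1002 ± 44.9 CPM in KO tumors and 1199 ± 119 CPM in NTC tumors (log2 fold change -0.26, SE 0.10, edgeR adjusted p 0.465). *Cnpy3*, its partner, and *Slc15a4*, an endosomal transporter, gave 0.10 each, and *Cd180* and *Ly86*, a surface receptor pair, gave 1.18 (SE 0.73) and 0.73 (SE 0.67), and 1.95 (SE 0.63) and 1.34 (SE 0.60) over 9 tumors. The 5 endosomal proteases, which cut the endosomal receptors into their active form, were 0 higher and 0 lower over 10 tumors and 5 higher and 0 lower over 9. Among them *Ctss* stood at 2188 ± 1750 and 900 ± 1119 CPM (1.28, SE 0.84, and 2.37, SE 0.70, over 9 tumors) and *Lgmn* at 660 ± 418 and 395 ± 319 CPM (0.74, SE 0.57, and 1.31, SE 0.49, over 9 tumors).

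Downstream of the receptors, the median log2 fold change over 10 tumors was 0.05 for adaptors and kinases, 0.30 for transcription factors, 0.14 for negative regulators and 0.26 for the induced genes. Over 9 tumors these medians were 0.10, 0.36, 0.13 and 0.99. Among 19 adaptors and kinases, 1 was higher and 0 lower over 10 tumors, and 3 higher and 0 lower over 9. *Myd88*, the adaptor of all these receptors but *Tlr3*, averaged 24.5 ± 9.95 CPM in KO tumors and 23.3 ± 7.64 CPM in NTC tumors (0.07, SE 0.32), and *Ticam1*, the adaptor of *Tlr3*, 15.9 ± 1.63 and 16.8 ± 2.06 CPM (-0.08, SE 0.12). *Irak4*, the first kinase after *Myd88*, gave 0.42 (SE 0.21), and 0.54 (SE 0.18) over 9 tumors, and *Traf6* gave -0.15 (SE 0.11). The inhibitory *Irak3* turned from -0.23 (SE 0.93) to 1.16 (SE 0.70) without NTC replicate 1. The 1 higher gene was *Chuk*, which encodes a kinase of the NF-kB pathway and was picked out after its value was seen, with a log2 fold change of 0.31 (SE 0.07, edgeR adjusted p 0.198) and every KO tumor above every NTC tumor. Among 11 transcription factors, 1 was higher and 0 lower over 10 tumors, and 3 higher and 0 lower over 9. The 1 over 10 tumors was *Nfkb2*, likewise picked out afterwards (0.64, SE 0.19, edgeR adjusted p 0.310), while *Irf5* gave 0.81 (SE 0.58), and 1.28 (SE 0.52) over 9 tumors, and *Irf7* gave 0.06 (SE 0.44), and 0.27 (SE 0.43) over 9. Among 10 negative regulators, 0 were higher and 1 lower over 10 tumors, *Sigirr*, also picked out afterwards (-0.42, SE 0.19, edgeR adjusted p 0.564), and 2 were higher and 1 lower over 9.

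Of 18 genes that Toll-like receptors induce, 15 could be tested, and 1 was higher and 1 lower at an unadjusted p under 0.05 over 10 tumors, and 4 higher and 0 lower over 9. The higher one was *Il12b*, a subunit of interleukin-12, at 2.09 ± 1.37 CPM in KO tumors and 0.478 ± 0.403 CPM in NTC tumors, with a log2 fold change of 2.19 (SE 0.71, edgeR adjusted p 0.367) and of 2.34 (SE 0.74, edgeR adjusted p 0.176) without NTC replicate 1. The lower one was *Cxcl2*, a neutrophil chemokine picked out after its value was seen, at -4.03 (SE 1.79, edgeR adjusted p 0.553), and it turned to 1.18 without NTC replicate 1. *Il1b* turned likewise, from -1.43 (SE 1.03) to 0.42 (SE 0.68), and *Tnf* gave 0.52 (SE 0.61), and 0.99 (SE 0.56) over 9 tumors. *Il6* and *Ifnb1* were too low to test, at no more than 0.756 and 0.158 CPM in any tumor. Of 11 genes of cytosolic sensing, which include the nucleic acid sensor *Cgas* and its adaptor *Sting1* but also sensors of bacterial cell wall such as *Nod1* and *Nod2*, 0 were higher and 0 lower over 10 tumors and 2 were higher and 0 lower over 9 at that threshold, with *Cgas* at 0.22 (SE 0.16) and *Sting1* at 0.11 (SE 0.11).

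With the macrophage score as a covariate, some of these counts turned. Over 10 tumors 6.68% of all genes were higher in KO tumors at an unadjusted p under 0.05 and 6.79% lower, and without NTC replicate 1, in the fit added after seeing the data, 4.48% were higher and 4.34% lower. Of the 15 induced genes 0 were higher and 7 lower over 10 tumors, and 0 higher and 5 lower over 9. Of the 19 adaptors and kinases 1 was higher and 4 lower, and 1 higher and 2 lower over 9. *Myd88* gave -0.49 (SE 0.16) with the covariate over 10 tumors and -0.77 (SE 0.14, edgeR adjusted p 0.0975) over 9, against 0.07 without it. Of the 11 transcription factors 1 was higher and 2 lower, and 0 higher and 3 lower over 9. Of the 10 negative regulators 0 were higher and 2 lower, and 0 higher and 1 lower over 9. Of the 11 genes of cytosolic sensing 0 were higher and 4 lower, and also 0 and 4 over 9. Of the 11 accessory and trafficking genes 0 were higher and 1 lower, and 1 higher and 0 lower over 9, and of the 5 endosomal proteases 0 were higher and 0 lower in both.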

How the data were processed

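Bulk RNA of 10 B16F10 tumors was sequenced, 5 *Mir25* KO and 5 NTC. The authors trimmed reads with Trimmomatic, aligned them to mm10 with HISAT2 and deposited one table of raw counts per tumor, in the htseq-count layout, per the submitters' processing notes. Summary rows (17.5% to 42.9% of reads outside genes) were left out of library sizes.

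Counts were scaled by TMM and tested with edgeR 4.0.16 (quasi-likelihood, filterByExpr, R 4.3.3) over all genes, with Benjamini-Hochberg adjustment. A gene was called at an adjusted p under 0.05 and an absolute log2 fold change over 1. SE is the absolute log2 fold change over the square root of F. Log2 CPM used a prior count of 2. Alternatives were DESeq2 1.42.0 (the tool of the study), RLE scaling, other filters, robust dispersion, a replicate block, leaving out each tumor and cell score covariates. The test was tried on simulated counts first. Exon lengths and UTRs came from GENCODE M21 (GRCm38), and figures from matplotlib 3.10.9. Counts carry no molecular identifiers, so depth gives counting error only and errors were taken between tumors.

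The 10 genes and all lists were chosen with earlier results of these data known. Named genes were the 10, the 3 nearest genes of each, and set members of the pathway lists.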

Additional observations from a re-analysis of the deposited data

Results flagged for a closer look

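NTC replicate 1 lay apart from the other 4 NTC tumors in 2 of 22 comparisons by Dixon's criterion for a single distant sample, and chance alone flags about 1 group in 20. Its *Tlr4* level was 7.27 on the log2 CPM scale, where the other NTC tumors lay between 6.17 and 6.43. Its *Ly96* level was 3.71, where the others lay between 2.69 and 2.97. The same tumor had the highest summed macrophage markers of the NTC group. Its library also had the lowest TMM factor, 0.628, which raises its scaled levels. The parts of the low depth and of that factor in both values were not tested.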

How the results depend on the processing

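edgeR called 1 gene higher and 2 lower among all genes. With at least 10 counts in every tumor it called 0 higher (and 6 lower), with DESeq2 24 and 72, with robust dispersion 4 lower, with the replicate block 0 lower, with no fold threshold 4 lower, with the pan-leukocyte score as a covariate 4 higher and 6 lower, and with the macrophage score 4 higher, over 10 tumors and over 9. Leaving out 1 tumor at a time gave 1 to 2 higher and 0 to 15 lower, the 2 and the 15 without NTC replicate 1. DESeq2 without that replicate, chosen after seeing the data, called 526 higher and 110 lower, and 3 of the 10 receptor genes. In each other setting 0 of the 10 were called. Of 200 log2 fold changes of the 10 genes under an alternative, 180 kept their direction and side of the threshold, 3 became calls and 17 turned. *Cd14* turned to 0.0056 with no filter, 0.66 with the block, 0.05 without KO replicate 3, 1.39 without NTC replicate 1 and 1.43 with DESeq2 without it, and it ran from -0.65 to 1.39 when each tumor was left out. With the macrophage score *Tlr13* turned to -0.11, *Unc93b1* to -0.060, *Tlr2* and *Tlr4* to -0.14 and *Ly96* to -0.024. With that score and without NTC replicate 1, added after seeing the data, *Tlr9* turned to -0.26, *Unc93b1* to -0.24, *Tlr2* to -0.15, *Tlr4* to -0.069 and *Cd14* to 0.23. With the pan-leukocyte score *Tlr2* turned to -0.018 and *Tlr4* to -0.10. The cause of these turns was not tested.

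The labels do not say whether equal replicate numbers pair tumors, and they were used only as names in the main fit. Same-numbered pairs deviated together with r of 0.17, -0.29, 0.08, 0.63 and 0.21. Of the tumors, 2 of 5 KO and 1 of 5 NTC were closest to their own number. These values do not settle whether the numbers carry a pairing. The endosomal minus surface difference of 0.45 ran from 0.35 to 0.60 when each tumor was left out. The lowest count of any of the 10 genes in a tumor was 24, and *Tlr7*, *Tlr8* and *Tlr13* spanned 22.03-fold to 25.0-fold over the tumors. How far depth and how far the spread between tumors limited their tests was not tested.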
